A study of Mus musculus with 9 samples.

Results

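The RGS genes encode regulators of G protein signalling, and 9 of them were followed here through resting, IgE-sensitised and antigen-stimulated mouse mast cells. They were taken as listed gene symbols (Rgs1, Rgs2, Rgs3, Rgs10, Rgs13, Rgs14, Rgs16, Rgs18 and Rgs19) from a table of 23951 genes, and all 9 were found. The cells were cultured from marrow of C57BL/6 wild-type animals for 4 to 6 weeks. The cytokines were interleukin-3 and stem cell factor, each at 10 ng/ml, and over 95% of the cells carried the IgE receptor FcER1 and CD117, per the labels. One group of 3 RNA-seq libraries came from cells left untreated. A second group of 3 came from cells sensitised for 18 h with 0.5 µg/ml IgE against the hapten DNP. The third group of 3 came from cells given the same IgE and then 50 ng/ml DNP-BSA, the antigen that cross-links IgE on its receptor, for 2 h. Levels are given in FPKM, the fragments of a gene scaled to transcript length and library size, on which different genes can be set side by side.

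G protein-coupled receptors signal by loading GTP onto the alpha subunit of a G protein, which then acts on adenylyl cyclases, phospholipase C beta and other effectors, as does the freed beta-gamma pair. RGS proteins bind the active alpha subunit through their RGS domain and speed up its hydrolysis of GTP, which ends the signal. In mast cells such receptors sense adenosine, prostaglandins, sphingosine-1-phosphate, complement fragments and chemokines, and Rgs13 is also known as a restraint on signalling from the IgE receptor.

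The members under 1 FPKM in every library without antigen were Rgs16 and Rgs3, so the sequence around their start sites is shown first, followed by that of Rgs13, which had the lowest level of the remaining members and fell between IgE and antigen. Each stretch holds 250 bases before and 50 after a start site, from RefSeq on GRCm38.p6. That build differs from the mm9 build of the authors' alignment, and the sequences were matched by symbol. RefSeq entries were matched for 6 of the 9 members, and Rgs1, Rgs14 and Rgs18 had none in the table used. CG dinucleotides, the sites of DNA methylation, are in capitals. Rgs3 has 2 listed starts, and the FPKM of the gene does not tell them apart.
Rgs16, chr1:153740103-153740402, plus strand: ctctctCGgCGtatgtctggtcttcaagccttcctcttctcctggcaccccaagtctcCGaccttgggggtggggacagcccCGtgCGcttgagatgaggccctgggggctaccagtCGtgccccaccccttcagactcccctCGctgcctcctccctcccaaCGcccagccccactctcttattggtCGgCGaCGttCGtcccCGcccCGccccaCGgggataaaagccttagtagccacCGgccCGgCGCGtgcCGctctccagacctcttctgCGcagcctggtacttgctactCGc
Rgs3, upstream start, chr4:62559597-62559896, plus strand: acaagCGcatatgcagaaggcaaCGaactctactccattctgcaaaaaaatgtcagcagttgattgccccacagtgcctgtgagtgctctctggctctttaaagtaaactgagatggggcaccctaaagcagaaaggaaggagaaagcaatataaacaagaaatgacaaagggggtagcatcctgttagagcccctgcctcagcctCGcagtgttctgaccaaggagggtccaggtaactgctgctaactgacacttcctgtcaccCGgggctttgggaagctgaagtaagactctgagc
Rgs3, downstream start, chr4:62619422-62619721, plus strand: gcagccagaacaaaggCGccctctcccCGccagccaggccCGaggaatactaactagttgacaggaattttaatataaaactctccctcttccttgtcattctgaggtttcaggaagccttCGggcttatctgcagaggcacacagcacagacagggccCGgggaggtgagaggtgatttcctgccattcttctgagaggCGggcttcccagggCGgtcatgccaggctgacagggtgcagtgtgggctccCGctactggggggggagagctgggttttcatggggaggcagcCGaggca
Rgs13, chr1:144177323-144177622, minus strand: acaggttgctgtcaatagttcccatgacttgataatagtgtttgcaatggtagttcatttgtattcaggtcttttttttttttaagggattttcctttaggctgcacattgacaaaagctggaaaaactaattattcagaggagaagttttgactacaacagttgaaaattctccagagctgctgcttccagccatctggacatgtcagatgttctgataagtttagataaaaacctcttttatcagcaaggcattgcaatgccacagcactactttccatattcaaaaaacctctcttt

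The Rgs16 stretch had 22 CG dinucleotides and 66.0% G or C, against medians of 7 and 52.7% over 32851 RefSeq start sites. The Rgs3 stretches had 4 and 9, and that of Rgs13 had 0, which is the case for 5.43% of all start sites. Rgs2 had 33, Rgs10 had 34 and the 3 listed starts of Rgs19 had 27, 37 and 4. A set of 9 short motifs was searched on both strands. The stretches of Rgs16, of Rgs10 and of the Rgs19 start with 37 CG dinucleotides matched none of them. Among all start sites the cyclic AMP response element TGACGTCA occurred in 1.79% and its first 5 bases, TGACG, which any full element also contains, in 20.8%. The AP-1 motif (TGANTCA) occurred in 7.81% of start sites, and the NF-kB motif in 8.46%. The short core bound by NFAT factors, GGAAA, was the most common and occurred in 61.3% of start sites. The motif of GATA factors, searched as AGATAA, was found in 11.2%, whereas the longer EGR motif GCGTGGGCG was found in 0.612%. The motif of RUNX factors, searched as TGTGGT, was found in 16.8% of start sites, and the TATA box in its form TATAAA was found in 13.6%. The Rgs13 stretch held an NF-kB match from base -165, overlapped by an NFAT core, a GATA match from base -25 and 2 further NFAT cores, counted from the start site. Both Rgs3 stretches held a TATAAA, from bases -100 and -177, and the downstream one also had a GATA match and an NFAT core. Rgs2 had 2 matches of TGACG, and the Rgs19 starts with 27 and 4 CG dinucleotides had 1 and 2 NFAT cores. These matches describe letters in these windows only.

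Orders and shares here cover the 9 listed genes only, and Rgs12, outside them, had a mean of 32.5 FPKM in untreated cells. Among the 9, the untreated transcript pool was led by Rgs18, an RGS protein best known from platelets and megakaryocytes. Its 3 libraries were at 260, 264 and 276 FPKM, which put its mean at place 240 of 23951 genes. Rgs10, which acts on G proteins of the Gi class, was at 102, 95.3 and 108 FPKM, and Rgs1, an inhibitor of chemokine receptor signalling, at 90.0, 99.0 and 94.4 FPKM. The ranges of Rgs10 and Rgs1 overlapped. Below them, without overlap, came Rgs19, known for its action on Gi proteins, at 43.7 to 45.2 FPKM, Rgs2, which prefers Gq, at 35.7 to 37.0 FPKM, and Rgs14, which also binds Ras-family GTPases and inactive Gi, at 30.7 to 30.9 FPKM. Rgs13 was at 2.75 to 4.26 FPKM. Rgs16, which acts on Gi and Gq, was at 0.486 to 0.535 FPKM and Rgs3, a protein with several isoforms, at 0.0377 to 0.0778 FPKM. For a transcript of 2 kb in the shallowest library, an antigen library, the counting of reads by itself would spread values by 15.5% (coefficient of variation) at 1 FPKM and 69.3% at 0.05 FPKM. The untreated libraries were estimated to be deeper, so this spread would be smaller there. The resting level of Rgs3 is still only roughly known.

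**Figure D1:**
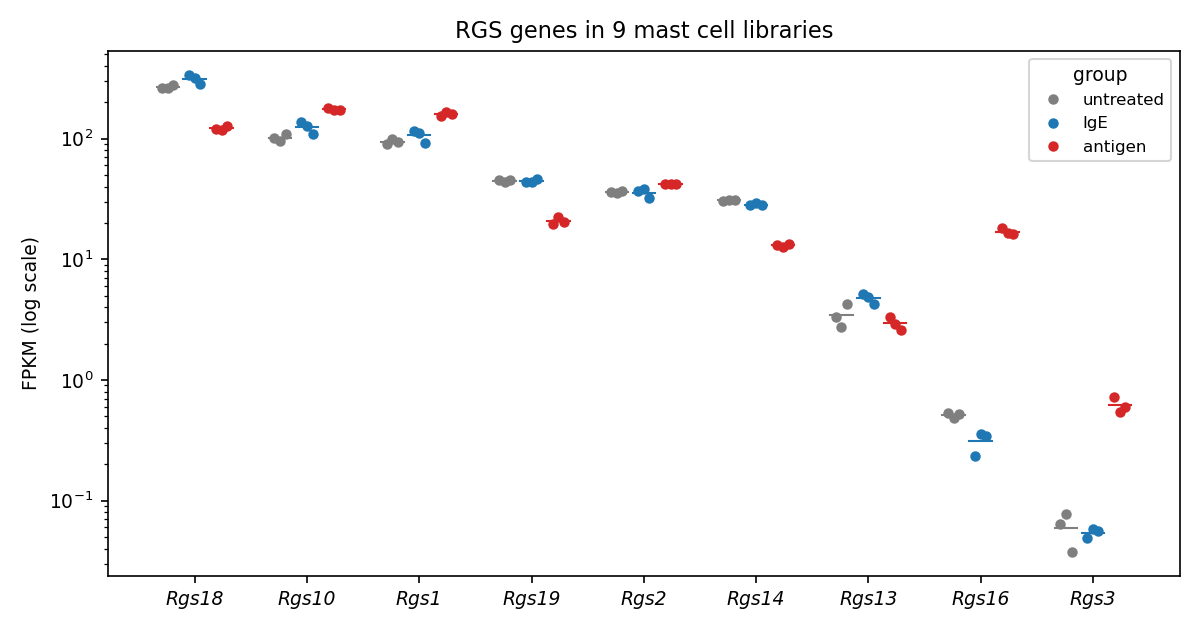
FPKM of the 9 RGS genes (log axis) in the 3 untreated (grey), 3 IgE (blue) and 3 antigen (red) libraries; points are libraries and short lines are group means. Rgs18 leads in untreated and IgE cells at 260 to 339 FPKM and drops to 119 to 127 FPKM with antigen, while Rgs16 climbs from under 1 to 16.1 to 18.0 FPKM.

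The order with IgE was the same as in untreated cells, with Rgs18 at 339, 318 and 282 FPKM and the ranges of Rgs10 and Rgs1 again overlapping. With antigen the order changed and no neighbours overlapped. Rgs10 led at 178, 174 and 174 FPKM, followed by Rgs1 at 155, 166 and 161 FPKM, and then Rgs18 at 121, 119 and 127 FPKM. Rgs2 came next at 41.8 to 42.0 FPKM, then Rgs19 at 19.7 to 22.5, Rgs16 at 16.1 to 18.0, Rgs14 at 12.7 to 13.4, Rgs13 at 2.59 to 3.30 and Rgs3 at 0.543 to 0.723 FPKM.

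The summed FPKM of the 9 genes moved less than their make-up. The sum was 579 ± 15.2 FPKM (SD, n = 3) in untreated, 657.5 ± 56.4 in IgE and 554 ± 3.18 in antigen libraries. Rgs18 made up 46.1% ± 0.231 of that sum in untreated and 47.6% ± 0.402 in IgE libraries, but 22.0% ± 0.725 in antigen libraries. The share of Rgs10 was 17.6% ± 0.822, 18.9% ± 0.513 and 31.6% ± 0.618, and that of Rgs1 was 16.3% ± 0.845, 16.1% ± 0.510 and 29.0% ± 0.854. Rgs16 went from 0.0887% and 0.0478% to 3.06% ± 0.195. Within a library, Rgs18 stood at 2.83 ± 0.137 times Rgs1 in untreated, 2.95 ± 0.0890 times in IgE and 0.762 ± 0.0400 times in antigen cells, so their order was reversed. In bulk RNA, a change in the RNA of each cell and a change in how many cells carry it cannot be told apart.

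**Figure D2:**
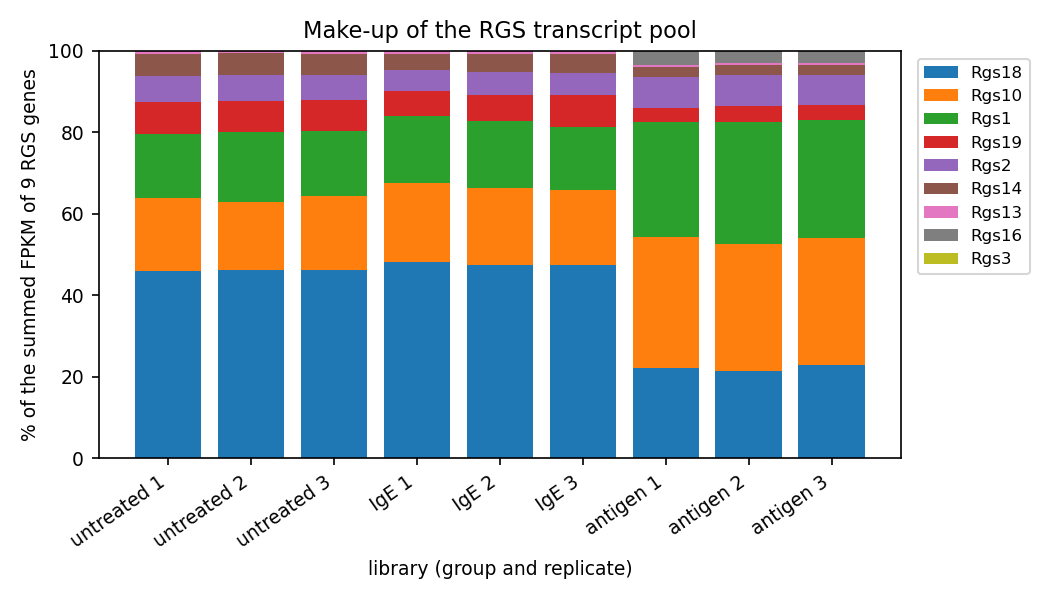
Share of each RGS gene in the summed FPKM of all 9 (percent, bars add to 100) for each of the 9 libraries, named by group and replicate. Rgs18 takes 45.8% to 48.1% in the untreated and IgE libraries and 21.4% to 22.8% in the antigen libraries, where Rgs10 takes 31.2% to 32.3% and Rgs1 28.1% to 29.8%.

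Some facts of the whole series bear on these values. The steps between low FPKM values put the depth of a library at 20.8 to 39.7 M reads (M, 1e6), lowest in the antigen group. IgE replicate 3 stood apart from its group, with an SD of 0.175 for its log2 differences from the other IgE libraries, against 0.0990 to 0.123 for the other 8 libraries. It was below both other IgE libraries in 6 of the 9 members, by 18.2% in Rgs1, 17.2% in Rgs10, 14.9% in Rgs13, 14.1% in Rgs18, 13.4% in Rgs2 and 1.92% in Rgs14. In antigen replicate 3, 441 genes of the X and Y chromosomes that were above 0 in all other libraries were listed at 0, and no member lies on either chromosome. The highest mast cell marker, the tryptase gene Tpsb2, was at 6680 ± 270 FPKM in untreated cells. Kit and Fcer1a, which encode CD117 and a chain of the IgE receptor, were at 447 ± 26.2 and 5652 ± 281 FPKM there, while Cpa3 and Cma1, also mast cell genes, were listed at 0 in all 9 libraries.

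Antigen cross-linking was compared with IgE alone to see what 2 h of receptor aggregation did to the RGS genes. Rgs16 showed by far the largest difference, Rgs1, Rgs10 and Rgs2 rose moderately, and Rgs18, Rgs14, Rgs19 and Rgs13 fell. Of the 10890 genes with at least 1 FPKM in 3 or more libraries, 71.1% were called by limma (adjusted p under 0.05), 36.2% higher and 34.9% lower. Of the 9 members, 8 were tested, and 4 were called higher and 4 lower, with Rgs3 under the filter. Rgs16 passed the filter through the antigen libraries alone, so a difference was built into its entry. The median log2 change of the 8 was -0.16, beside -0.01 over all tested genes. With a call this common, the sizes tell more than the count: Rgs16, Rgs18, Rgs14 and Rgs19 differed by 2-fold or more after adding 1 to each FPKM, as did 10.5% of all tested genes.

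Rgs16 was at 0.233, 0.354 and 0.344 FPKM with IgE and at 18.0, 16.6 and 16.1 FPKM with antigen. All antigen libraries lay far above all others. The ratio of means was 54.6 and the log2 change 3.77 (SE 0.0574, adjusted p = 6.86e-10), place 18 among the rises of all tested genes. Because it entered the test through the antigen libraries alone, its p-value and place describe the rise and do not test it. The log2 scale adds 1 to each FPKM and so understates the change of a gene that starts near 0. In the GENCODE M21 annotation an antisense gene, Gm28513, overlaps exons of Rgs16. Whether strand was used in counting is not given in the sources used here, so reads of the pair may not be separated.

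Rgs3 followed the same course at a far lower level. Its IgE libraries were at 0.0492, 0.0579 and 0.0557 FPKM and its antigen libraries at 0.723, 0.543 and 0.602 FPKM, with no overlap. The ratio of means was 11.5. With a filter of 0.5 FPKM in 3 libraries, which Rgs3 also passed through the antigen group alone, its log2 change was 0.62 (SE 0.0505, limma adjusted p = 8.4e-06).

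Rgs1 was at 116, 111 and 92.5 FPKM with IgE and 155 to 166 FPKM with antigen, and the groups did not overlap. It rose 1.51-fold (log2 0.60, SE 0.0795, adjusted p = 0.000182), or 1.42-fold without IgE replicate 3 and antigen replicate 3. Rgs10 was at 137, 128 and 110 FPKM with IgE and 174 to 178 FPKM with antigen. It rose 1.41-fold (log2 0.49, SE 0.0800, adjusted p = 0.000602). Rgs2 was at 36.6, 38.2 and 32.4 FPKM with IgE and 41.8 to 42.0 FPKM with antigen, also without overlap. Its 1.17-fold rise (log2 0.23, SE 0.0548, adjusted p = 0.00537) was the smallest change of the tested members. After quantile normalization all 3 rises were less than 0.5 times as large in log2, at 0.28 for Rgs1, 0.16 for Rgs10 and 0.09 for Rgs2, and the calls of Rgs10 (adjusted p = 0.0701, the alternatives ranging from 0.000159 to 0.0701) and Rgs2 (adjusted p = 0.154, ranging from 0.00153 to 0.154) were lost.

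Rgs18 fell the most, from 339, 318 and 282 FPKM with IgE to 121, 119 and 127 FPKM with antigen. The drop of the mean was 2.56-fold (log2 -1.35, SE 0.0654, adjusted p = 3.53e-07), and the lowest IgE library was still above every antigen library. Rgs14 went from 28.2, 29.0 and 28.1 to 13.2, 12.7 and 13.4 FPKM, 2.17-fold lower (log2 -1.06, SE 0.0300, adjusted p = 1.64e-08). Rgs19 went from 43.5, 43.3 and 45.9 to 19.7, 22.5 and 20.4 FPKM, 2.12-fold lower (log2 -1.05, SE 0.0490, adjusted p = 2.81e-07). Libraries of the same group were tight for both genes, and between IgE and antigen their ratio moved far less than their levels. Rgs19 was 1.45 ± 0.0295, 1.56 ± 0.0723 and 1.59 ± 0.149 times Rgs14 in untreated, IgE and antigen cells. The ratio was higher with IgE (1.495 to 1.637) than in untreated libraries (1.415 to 1.472), without overlap. Rgs13 went from 5.11, 4.88 and 4.25 to 3.30, 2.91 and 2.59 FPKM, 1.62-fold lower (log2 -0.55, SE 0.126, adjusted p = 0.00448).

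**Figure D3:**
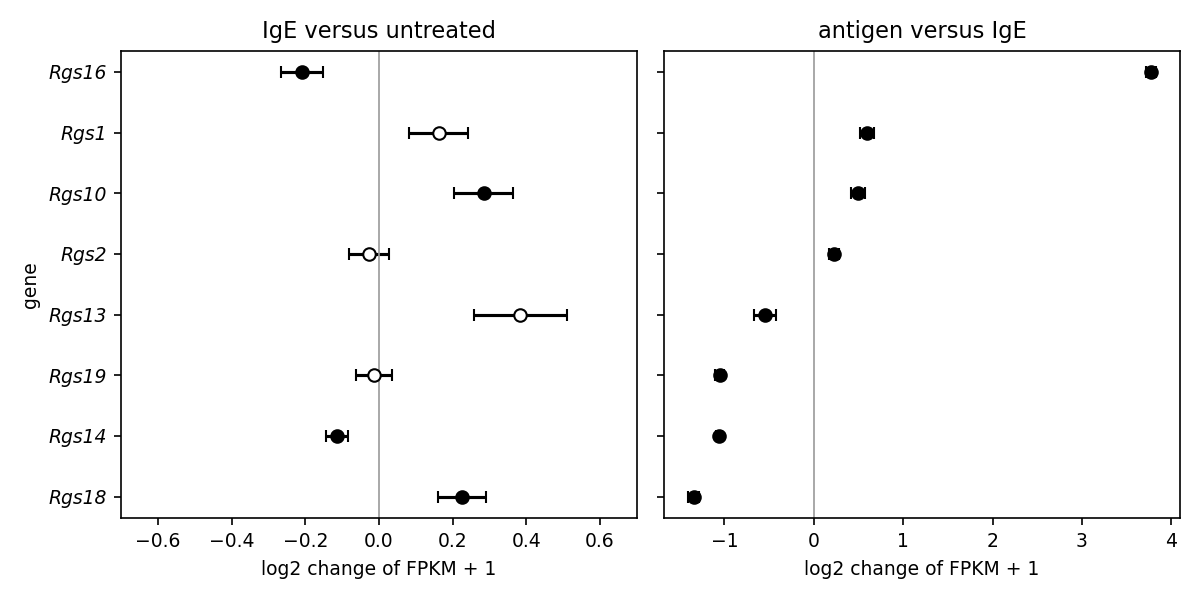
Log2 change of FPKM + 1 with its standard error for the 8 tested RGS genes, for IgE versus untreated (left, from -0.21 to 0.38) and antigen versus IgE (right, from -1.35 to 3.77, on a wider axis). Filled points have a limma adjusted p under 0.05 and open points do not; every gene is filled on the right.

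Sensitisation with IgE for 18 h, without antigen, was compared with no treatment. All changes of the members were small, and none reached 2-fold, as did 0.0826% of all tested genes. Of the 8 tested members, Rgs10 and Rgs18 were called higher and Rgs14 and Rgs16 lower. Over all genes 27.5% were called, 14.5% higher and 13.1% lower. The members' median log2 change was 0.07, beside -0.01 over all tested genes.

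Rgs10 rose from 102, 95.3 and 108 to 137, 128 and 110 FPKM (1.22-fold, log2 0.28, SE 0.0800, adjusted p = 0.0316), with the lowest IgE library just above the highest untreated one. Rgs18 rose from 260, 264 and 276 to 339, 318 and 282 FPKM (1.17-fold, log2 0.23, SE 0.0654, adjusted p = 0.0351). Rgs14 fell from 30.7, 30.9 and 30.9 to 28.2, 29.0 and 28.1 FPKM (log2 -0.11, SE 0.0300, adjusted p = 0.0249). Rgs16 went from 0.535, 0.486 and 0.521 to 0.233, 0.354 and 0.344 FPKM (log2 -0.21, SE 0.0574, adjusted p = 0.029), values at which counting error is large, and with a pseudocount of 0.1 its log2 change was -0.59. In these 4 genes the groups did not overlap, but how many of all tested genes separate in the same way was not counted.

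On the log2(FPKM + 1) scale Rgs13 had the largest difference of the tested members, while as a ratio of means Rgs16 differed more (1.66-fold lower against 1.38-fold higher). Rgs13 went from 3.31, 2.75 and 4.26 to 5.11, 4.88 and 4.25 FPKM, and the groups overlapped and it missed the threshold (log2 0.38, SE 0.126, adjusted p = 0.0547). With the X and Y zeros of antigen replicate 3 set as missing, limma called Rgs13 higher (adjusted p = 0.0331). The members then counted 3 higher and 2 lower, although none lies on those chromosomes. Rgs1 was at 90.0 to 99.0 and 92.5 to 116 FPKM (log2 0.16, adjusted p = 0.168). Rgs2 (log2 -0.03, adjusted p = 0.767) and Rgs19 (log2 -0.01, adjusted p = 0.884) had ranges that overlapped. Rgs3 overlapped as well, at 0.0377 to 0.0778 and 0.0492 to 0.0579 FPKM.

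Leaving out single libraries changed which members passed the threshold, with changes in the same direction for all 4. All 4 calls were lost without untreated replicate 1, without untreated replicate 2 and without IgE replicate 1, where the log2 changes were 0.21 to 0.29 for Rgs10, 0.17 to 0.22 for Rgs18, -0.12 to -0.11 for Rgs14 and -0.22 to -0.17 for Rgs16. Without IgE replicate 2 or antigen replicate 2 the 2 rises were lost, and without untreated replicate 3 Rgs10 and Rgs13 were called higher and no member lower. Without antigen replicate 1 the call of Rgs18 was lost, and without antigen replicate 3 Rgs13 was called higher (adjusted p = 0.0376). Without IgE replicate 3, Rgs1 (log2 0.26, adjusted p = 0.00749, the alternatives ranging from 0.0053 to 0.424) and Rgs13 (log2 0.45, adjusted p = 0.0453, ranging from 0.0188 to 0.147) were called higher too, which made 4 rises.

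Antigen-stimulated cells were also set beside untreated ones, a comparison that uses the same antigen libraries. Here 71.7% of all tested genes were called, 37.2% higher and 34.4% lower, and 11.2% changed at least 2-fold. Of the 8 tested members 4 were called higher and 3 lower, and the higher ones include Rgs16, which entered through the antigen libraries alone. Rgs16 was 32.97-fold higher (log2 3.57), Rgs10 1.72-fold (log2 0.78, adjusted p = 3.48e-05), Rgs1 1.70-fold (log2 0.76, adjusted p = 3.92e-05) and Rgs2 1.15-fold (log2 0.20, adjusted p = 0.00987, lost after quantile normalization at log2 0.04 and adjusted p = 0.493, the alternatives ranging from 0.000233 to 0.493). Rgs14 was 2.35-fold, Rgs18 2.18-fold and Rgs19 2.14-fold lower. Rgs13 was at 2.75 to 4.26 FPKM without treatment and 2.59 to 3.30 FPKM with antigen, which overlapped (log2 -0.16, SE 0.126, adjusted p = 0.277). Its IgE mean was above both.

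The members Rgs1, Rgs2, Rgs13, Rgs16 and Rgs18 lie on mouse chromosome 1 in the RefSeq order of GRCm38.p6. Rgs2, Rgs13, Rgs1, Rgs21 and Rgs18 follow one another with no other protein-coding gene between them, and Rgs16 lies elsewhere on the chromosome beside Rgs8. Neighbours in this row went different ways with antigen. Rgs2 and Rgs1 rose, Rgs13 between them and Rgs18 fell, and Rgs21 was listed at 0 in all IgE and antigen libraries. Rgs8, beside Rgs16, was under the filter, with means of 0.421, 0.413 and 0.462 FPKM in untreated, IgE and antigen cells. Uchl5, a proteasome-bound deubiquitinase beside Rgs2, fell from 31.0 to 24.97 FPKM (log2 -0.30, adjusted p = 0.000605).

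**Figure D4:**
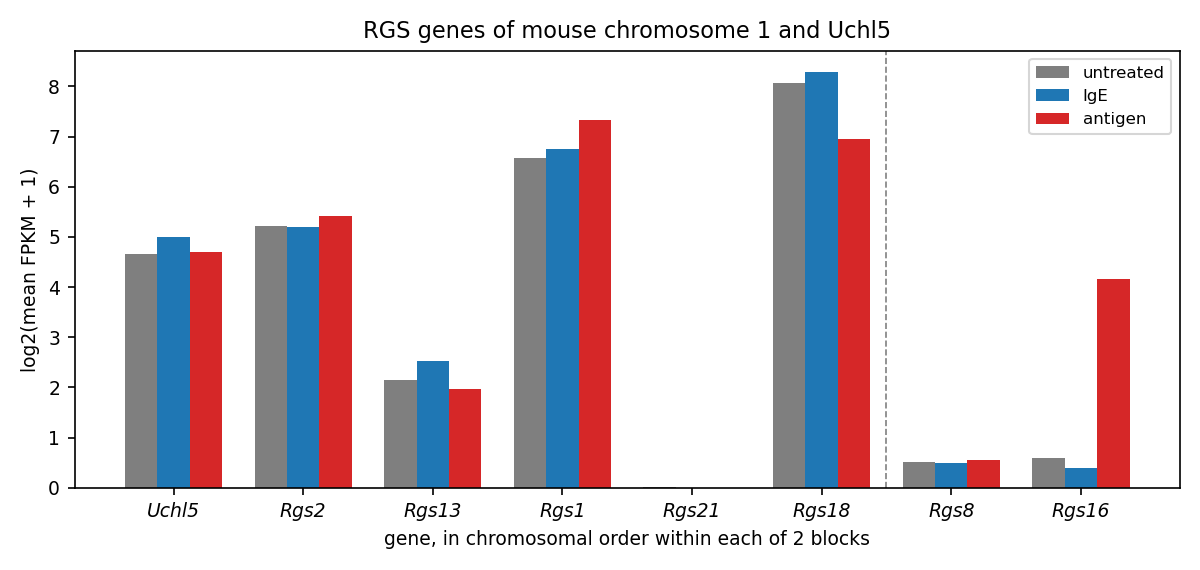
Group means as log2(FPKM + 1) for genes in chromosomal order on mouse chromosome 1, in a row of RGS genes with Uchl5 (left of the dashed line) and for Rgs8 and Rgs16 (right). Bars start at 0. Among the 3 bars of each gene, the antigen bar is the highest for Rgs2, Rgs1, Rgs16 and, by a small margin, the untested Rgs8, and the lowest for Rgs13 and Rgs18, and Rgs21 has no visible bar.

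Away from chromosome 1, 3 neighbours were tested. Lman2, a cargo receptor beside Rgs14, was at 62.2 and 59.75 FPKM with IgE and antigen (log2 -0.06, adjusted p = 0.117), and Tial1, an RNA-binding protein beside Rgs10, at 11.96 and 11.65 FPKM (log2 -0.03, adjusted p = 0.618). Tcea2, an elongation factor beside Rgs19, fell from 3.39 to 1.83 FPKM (log2 -0.63, adjusted p = 0.000296). The neighbours of Rgs3, 4933430I17Rik and Zfp618, were under the filter.

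The genes whose course over the 9 libraries lay closest to each member were found by the root mean square (RMS) difference of centred log2(FPKM + 1) values. Closest to Rgs16 were Pdgfa, a platelet-derived growth factor chain (RMS 0.10), and Bcl6, a transcriptional repressor (RMS 0.10). Pdgfa went from 5.09 to 80.95 FPKM and Bcl6 from 1.57 to 31.4 FPKM between IgE and antigen. Closest to Rgs18 was Angpt1, the ligand angiopoietin-1 (RMS 0.04), with 125, 138 and 54.25 FPKM in untreated, IgE and antigen cells. Closest to Rgs19 was Pik3cg, the catalytic subunit of a phosphoinositide 3-kinase activated by G protein beta-gamma pairs (RMS 0.04), with 33.65, 32.1 and 14.75 FPKM. Rgs14 had Polg, the mitochondrial DNA polymerase (RMS 0.03), Rgs1 had Psmc6, a proteasome ATPase (RMS 0.04), Rgs10 had Fam134b, an ER-phagy receptor (RMS 0.06), Rgs2 had Mrpl39 (RMS 0.03) and Rgs13 had 1110004E09Rik (RMS 0.09). Since the 9 libraries form 3 groups, such a likeness describes 3 levels and little more.

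The other parts of G protein signalling were counted from lists chosen with earlier results of these data known. Their counts stand beside the shares over all tested genes, which for antigen versus IgE were 36.2% higher and 34.9% lower. Those shares belong to the main fit. List counts after quantile normalization or with the X and Y zeros set as missing have no matching share given here and cannot be read against one. A gene under 1 FPKM in every library on one side of that comparison passed the filter through the other side alone, so that its difference was built into its entry. Of 15 further RGS genes and RGS-binding proteins, 3 were tested and 6 were listed at 0 in all libraries. Between IgE and antigen, Rgs9 rose from 10.5 ± 0.466 to 16.2 ± 0.501 FPKM (adjusted p = 0.000165) and Rgs12 from 38.1 ± 0.771 to 46.2 ± 0.557 FPKM (adjusted p = 0.000531). Rgs7bp, a membrane anchor of RGS proteins, was at 1.10 ± 0.0930 with IgE and 0.229 ± 0.0278 FPKM with antigen, and it passed the filter through the libraries without antigen alone. Among 9 other proteins with an RGS homology domain, 3 rose and 2 fell, including Snx13 (log2 0.39), Snx14 (log2 -0.48) and Arhgef11 (log2 -0.67).

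Of the targets of RGS proteins, 6 of 11 tested alpha subunits were called higher with antigen against IgE and 0 lower. Over all tested genes 71.1% were called, a larger share than 6 of 11. Gna13 rose 3.62-fold to 60.4 ± 2.41 FPKM and Gna15 1.57-fold to 32.9 ± 1.19 FPKM. Gnai1 went from 0.633 ± 0.0588 to 2.82 ± 0.278 FPKM and passed the filter through the antigen libraries alone. After quantile normalization 4 alpha subunits were higher and 2 lower. The most abundant, Gnai2, was at 248 ± 7.34 and 243 ± 5.10 FPKM (adjusted p = 0.459) and was named here after its values were seen. Of 8 beta and gamma subunits 2 rose, Gnb4 (1.62-fold) and Gng5 (from 278.5 to 417 FPKM), and 1 fell, Gng2, from 43.9 ± 1.74 to 25.3 ± 0.856 FPKM, with 2 higher and 3 lower after quantile normalization and 3 and 1 with the X-chromosome zeros of antigen replicate 3 missing. Of 5 exchange factors and GoLoco proteins, Ric8 rose (log2 0.47), and Gpsm1 and Gpsm2, which hold inactive Gi as Rgs14 can, fell (log2 -0.77 and -0.87), and 3 fell with those zeros missing.

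Of 6 receptor kinases and arrestins, which switch receptors off, 2 rose and 4 fell. Arrb1 rose 1.98-fold to 74.2 ± 0.202 FPKM, while Arrb2 went from 84.9 ± 3.61 to 45.7 ± 1.02 FPKM and Grk6 from 42.0 ± 0.917 to 27.1 ± 0.641 FPKM. Among 12 effectors 5 were called higher and 5 lower. Adcy7, an adenylyl cyclase, rose 2.07-fold. Pik3r5, a regulatory subunit of the Pik3cg kinase, went from 0.152 ± 0.0343 to 2.89 ± 0.148 FPKM and passed the filter through the antigen libraries alone. Pik3cg fell (log2 -1.07). Of 36 receptors 16 were called higher and 15 lower, or 16 and 17 with those zeros missing. Of the 36, 3 passed the filter through the antigen libraries alone (S1pr3, Cxcr4 and Gpr65) and 2 through the libraries without antigen alone (Cxcr2 and Sucnr1). C5ar1, a complement receptor, rose 24.3-fold, S1pr3, a sphingosine-1-phosphate receptor, went from 0.228 ± 0.00965 to 3.78 ± 0.0961 FPKM, and Hrh4, a histamine receptor, fell from 32.7 ± 1.58 to 6.85 ± 0.303 FPKM.

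**Figure D5:**
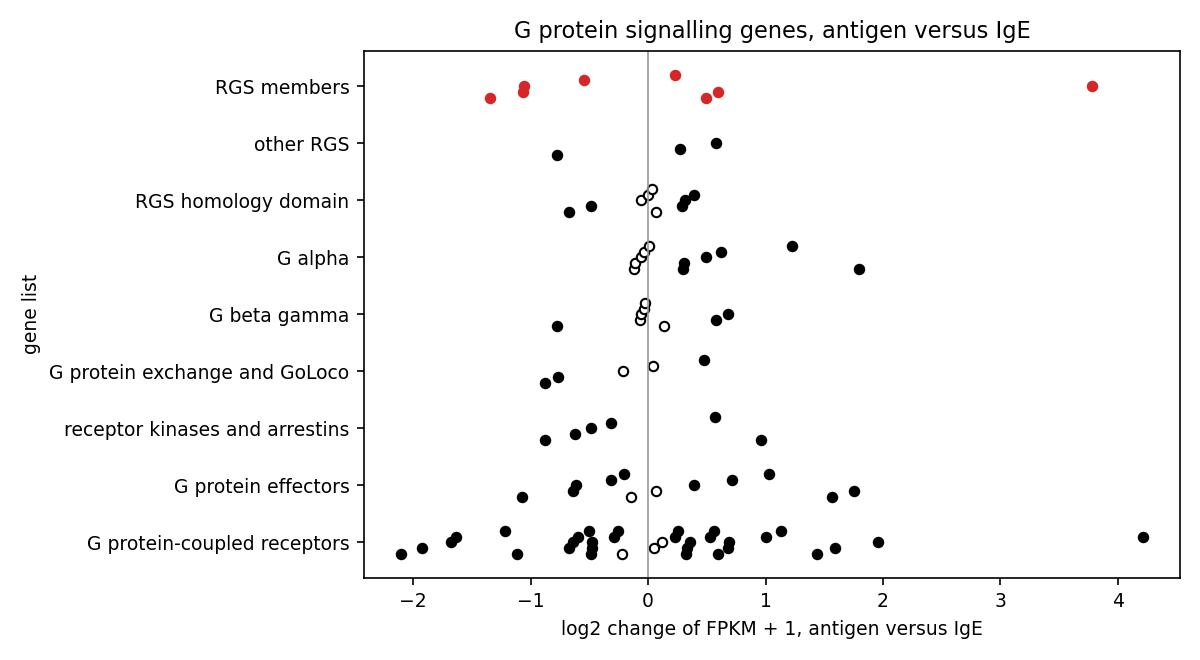
Log2 change of FPKM + 1 between IgE and antigen for each tested gene of 9 lists of G protein signalling; filled points have a limma adjusted p under 0.05, open points do not, and the RGS genes studied here are red. P2ry10 and Gpr34, listed at 0 in antigen replicate 3, are left out; Rgs16 at 3.77 and C5ar1 at 4.21 lie farthest to the right.

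For IgE against untreated, where 27.5% of all tested genes were called (14.5% higher and 13.1% lower), the counts were smaller. Of the 36 receptors 0 were called higher and 12 lower by limma, among them Lpar6, from 144 ± 1.29 to 97.2 ± 5.48 FPKM, and Hrh4 (log2 -0.30). With the X-chromosome zeros missing the counts were 1 and 16, and the share of all tested genes called in that fit is not given here. Rgs12 rose (log2 0.22, adjusted p = 0.00741), Gnai1 went from 0.215 ± 0.0634 to 0.633 ± 0.0588 FPKM (log2 0.43, adjusted p = 0.00328), Gng2 fell (log2 -0.33) and Arrb1 fell (log2 -0.26). Of the 11 alpha subunits 2 were called higher, Gnai1 and Gnas, and 0 lower. Gnas was at 114 ± 2.63 and 127 ± 6.73 FPKM (limma adjusted p = 0.0385). Its call was lost without untreated replicate 1, 2 or 3, IgE replicate 2 or 3 or antigen replicate 2. Quantile normalization (adjusted p = 0.227, the alternatives ranging from 0.028 to 0.227), median centring and trimmed mean scaling also removed it. So did fitting without a filter, with only the groups compared, with the replicate block or without IgE replicate 3 and antigen replicate 3 together, and the 2-fold threshold. Without IgE replicate 3 and antigen replicate 3 together, 1 alpha subunit was higher and 1 lower.

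Markers of other blood cells were read because several RGS genes are shared with them. Of 7 platelet and megakaryocyte markers 3 passed 1 FPKM in 3 libraries, led by Itga2b, an integrin that cultured mast cells also carry. The list summed to 451 to 457 FPKM in untreated, 375 to 393 in IgE and 406 to 419 in antigen libraries. That sum follows Itga2b (431, 362.5 and 395 FPKM). Gp1ba, at 18.2, 14.9 and 15.2 FPKM, and Gp9, at 5.23, 4.52 and 2.92 FPKM, also passed. Rgs18 was at 267, 313 and 122 FPKM, and the part of such cells in its course was not tested. Ppbp was listed at 0 in all libraries and Pf4 had a mean of at most 0.0757 FPKM in any group. Of 6 monocyte and macrophage markers found, 4 passed, led by Lyz2. The list summed to 129 to 143 FPKM in untreated, 100 to 109 in IgE and 74.8 to 76.1 in antigen libraries. Rgs14, Rgs18 and Rgs19 fell between IgE and antigen. Between untreated and IgE, where the sum was also lower, Rgs14 fell (log2 -0.11), Rgs18 rose (log2 0.23) and Rgs19 was not called (log2 -0.01). The part of such cells in these courses was not tested. Between IgE and antigen Lyz2, Cx3cr1 and Emr1 fell, while Cd14 went the other way, from 0.714 to 3.45 FPKM, and passed the filter through the antigen libraries alone. The 3 basophil markers summed to 507 to 545, 423 to 477 and 554 to 574 FPKM, a sum that follows Cd200r3 (393, 344 and 492 FPKM). The others differed from it and from each other, with Prss34 at 120, 92.1 and 54.7 FPKM and Mcpt8 at 12.4, 16.9 and 19.5 FPKM. Markers other than the highest of each list were named after their values were seen. Of 5 B cell markers only Cd79b passed (list sums 2.29 to 2.54, 1.86 to 2.20 and 0.788 to 1.09 FPKM), with Ms4a1 and Pax5 listed at 0. Of 5 T cell markers 0 passed, with Cd3e and Cd3g listed at 0 and sums of at most 0.759 FPKM, led by Cd247. Of 6 neutrophil markers found only S100a8 passed, with sums of at most 2.60 FPKM, and of 5 erythroid markers only Hbb-bt, with sums of 15.2 to 18.2, 21.6 to 23.6 and 25.3 to 27.1 FPKM.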

How the data were processed

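Total RNA of 9 mast cell libraries was sequenced. The deposited table holds FPKM values per gene symbol, 1 column per library. The submitters' processing notes name TopHat2 2.0.12, Bowtie 0.12.7 and the mm9 build. Which program and annotation gave FPKM, and whether strand counted, is not given in the sources used here. FPKM carries no read totals. Depth was therefore estimated from the steps of low values in 2966 genes with a single GENCODE M21 transcript, and such figures cover counting error only. At the best depth, 46.8% to 62.9% of these values per library lay within 0.1 reads of a whole count, so the depths are approximate.

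Genes that reached 1 FPKM in 3 or more libraries entered limma 3.58.1 (R 4.3.3). The model took log2(FPKM + 1), fitted a mean for each group over all 9 libraries and let the prior variance follow intensity. Tests were two-sided, with Benjamini-Hochberg adjustment across all 10890 tested genes, and genes with an adjusted p under 0.05 were called. A fold without log2 divides one group's mean FPKM by another's. The fit was tested on simulated data. The members and lists were chosen with earlier results of these data known. Besides the members, named genes were taken from up to 3 called genes per list and comparison with the smallest adjusted p, the highest marker of each cell type, the closest genes in course and chromosomal neighbours. Some genes that meet this rule are not reported here. The labels do not tie replicates to separate cultures or animals. The p-values therefore rest on the spread among these samples alone, and that spread may be technical. Alternatives covered the pseudocount, filter, scaling, prior, fitted libraries, replicate block, each library left out, the X and Y zeros and a 2-fold threshold.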

Additional observations from a re-analysis of the deposited data

How the results depend on the processing

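Across the 22 alternatives, the directions of all 8 tested members held for antigen versus IgE and for antigen versus untreated. The number called was 8 and 7 in these comparisons, and 4 in each at a 2-fold threshold (1 higher); quantile normalization left 2 higher in the former. In IgE against untreated cells, 4 members were called (2 higher, 2 lower), against 2 after median centring (1 each way), 1 without a filter (0 higher, 1 lower), 1 with only the 2 groups in the fit (1 higher, 0 lower), 0 at 2-fold and 0 with the replicate block; quantile normalization gave 1 lower. Leaving out 1 library gave 0 to 6 called, 0 to 4 higher and 0 to 2 lower. Shares of all tested genes called with median centring, quantile normalization, the 2-group fit or the replicate block are not given here. Those member counts therefore cannot be read against them, and the cause was not tested. Log2 changes near 0 turned when 1 library was left out: they spanned -0.0754 to 0.0404 for Rgs2, -0.0394 to 0.0013 for Rgs19, -0.0102 to 0.0534 for Rgs7bp, -0.0527 to 0.0303 for Snx13 and -0.1473 to 0.0079 for Rgs9. For antigen versus IgE that of Gnas was -0.0238 after quantile normalization. The share of all tested genes called was 10.5%, 11.2% and 0.0826% at 2-fold, and for IgE versus untreated 16.1% without a filter and 17.6% to 38.7% with 1 library, or IgE replicate 3 and antigen replicate 3 together, left out. Correlations between the deviations of same-numbered libraries ranged from -0.15 to 0.35. Between IgE and untreated libraries they were 0.11, 0.35 and 0.04, while differently numbered libraries there gave -0.35 to 0.24. The labels do not state a pairing, and the main fit did not use the numbers as pairs. No scaling moved the median of all genes by over 0.1, but quantile normalization moved some members more. For antigen versus IgE, Rgs1 went from log2 0.60 to 0.28, Rgs10 from 0.49 to 0.16 and Rgs18 from -1.35 to -1.64. Rgs16 hardly moved, from 3.77 to 3.75. The summed FPKM of all genes was 469206 to 508831 in untreated, 483794 to 524935 in IgE and 554415 to 575197 in antigen libraries. Depth limits Rgs3, Rgs16 and Rgs13 the most.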
